A study of Mus musculus with 17 samples.

Results

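Malat1, Neat1, Meg3, Rian, Mirg, Miat and Snhg11 are long noncoding RNA genes whose transcripts stay mostly in the cell nucleus. They were taken by gene symbol from a deposited table of 56953 mouse genes, in which each of the 7 occurred once. All 7 passed the filter on low counts that left 23062 genes for testing.

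The libraries were made from poly(A) RNA of the prefrontal cortex of mice of 8 months on the B6C3F1/J background, with 5 WT libraries, 6 PS19 libraries and 6 CgA-KO/PS19 libraries. PS19 mice, labelled hTau, carry a transgene for human 1N4R Tau with the P301S mutation under the mouse Prnp promoter, and are a model of tauopathy. CgA-KO/PS19 mice, labelled CgA-KO/hTau, carry the same transgene and lack Chga, the gene of the secretory granule protein chromogranin A, in the whole body from conception. The study asked how loss of chromogranin A alters this tauopathy, and no CgA-KO library without the Tau transgene was analysed here. The deletion was made in a mixed stock and backcrossed to C57BL/6 J and then B6C3F1/J before the cross with PS19.

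Long noncoding RNAs of the nucleus are not translated and act, where a role is known, as scaffolds for proteins. Malat1 is the RNA of nuclear speckles, which store splicing factors, and Neat1 is the architectural RNA of paraspeckles, bodies that hold RNA-binding proteins. Meg3, Rian and Mirg lie in a row in the imprinted Dlk1-Dio3 domain, are expressed from the maternal chromosome, and carry microRNAs and small nucleolar RNAs in their introns and exons, while Miat, also called Gomafu, binds splicing factors through short repeats and Snhg11 is a host gene of a small nucleolar RNA.

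Coordinates are those of GENCODE M21 on GRCm38, the assembly also known as mm10. Malat1 (ENSMUSG00000092341.5) lies at chr19:5795690-5802672 on the minus strand and Neat1 (ENSMUSG00000092274.5) at chr19:5824708-5845478 on the same strand, with 22 kb between them and no other tested gene in that gap. Meg3 (ENSMUSG00000021268.19, chr12:109541001-109571726), Rian (ENSMUSG00000097451.12, chr12:109603940-109661716) and Mirg (ENSMUSG00000097391.9, chr12:109729764-109749460) lie on the plus strand within 208.5 kb. Chga itself lies on the same chromosome, 6.99 Mb from Meg3. Miat (ENSMUSG00000097767.10) lies at chr5:112213228-112229395 on the minus strand, and Snhg11 (ENSMUSG00000044349.17) at chr2:158375638-158386145 on the plus strand. Snhg11 is annotated as protein_coding in that release and the others as noncoding.

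The 3′ ends of Malat1 and Neat1 are shown first because the libraries were made by capture of poly(A) RNA, and the mature Malat1 transcript and the long form of Neat1 are known to end in an encoded A-rich stretch folded into a triple helix instead of an added tail. Capitals mark the U-rich motifs TTTCTTTT and TTTTGCTTT and the A-rich motif AAAAGCAAA, written as DNA. The Malat1 stretch covers positions 6603 to 6695 of the longest Malat1 transcript (chr19:5795978-5796070), and the Neat1 stretch the last 95 bases of the long form (chr19:5824708-5824802). The short form of Neat1 ends instead near an AATAAA poly(A) signal, in capitals in its last 50 bases (chr19:5842307-5842356). All 3 are on the minus strand.
Malat1 3′ end: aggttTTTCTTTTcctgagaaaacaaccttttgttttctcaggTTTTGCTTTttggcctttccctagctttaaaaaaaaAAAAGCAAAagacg
Neat1 long form 3′ end: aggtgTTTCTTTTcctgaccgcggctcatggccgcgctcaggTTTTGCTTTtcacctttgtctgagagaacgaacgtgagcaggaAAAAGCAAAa
Neat1 short form 3′ end: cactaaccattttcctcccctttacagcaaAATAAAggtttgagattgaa

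Searched on the transcript strand only, the 3 motifs stood in this order, each at most 60 bases after the one before, in 2 of 29881 noncoding transcripts of GENCODE M21, which are these forms of Malat1 and Neat1. An AATAAA in the last 50 bases was common, in 23.8% of those transcripts. The deposited counts are per gene, so the short and the long form of Neat1 were not separated.

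In Miat the repeat is TACTAAC, in capitals below. The longest Miat transcript searched holds it 6 times. At least as many copies were in 3 of the 29881 transcripts, Miat included, and 2.63% of them hold it at least once on their own strand. The stretch shown, positions 5584 to 5634 (chr5:112216757-112216807, minus strand), has 3 copies.
Miat repeats: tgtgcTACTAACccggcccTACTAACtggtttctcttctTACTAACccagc

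Meg3 spans 2 microRNA genes, Rian 3 and Mirg 14 in the RefSeq entries for GRCm38.p6, with 35 mature microRNAs and 34 different seeds between them. The mature sequences of 5 are given here, with the seed (bases 2 to 8) in capitals, because these transcripts are their hosts, and all lie on the plus strand. They include miR-134-5p, known for its action in dendrites, and the pair of Mirg microRNAs that share a seed, miR-453 and miR-496a-5p.
miR-770-5p, in Meg3 (chr12:109563710-109563731): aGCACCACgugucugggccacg
miR-370-3p, in Rian (chr12:109618305-109618326): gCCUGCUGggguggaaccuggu
miR-134-5p, in Mirg (chr12:109734145-109734166): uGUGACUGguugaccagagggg
miR-453, in Mirg (chr12:109735669-109735692): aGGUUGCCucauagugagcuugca
miR-496a-5p, in Mirg (chr12:109739132-109739152): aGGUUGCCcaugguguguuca
Mature microRNAs are not captured by these libraries, and no level of them was measured.

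Some libraries stood apart from the rest of their genotype. The total count per library was 8838334 to 227651681, the lowest in WT replicate 4. Chga was at 0 counts in all 6 CgA-KO/PS19 libraries and at 151.7 to 180.0 CPM (counts scaled to library size) in the others. The share of counts from mitochondrial genes was 2.56 to 4.59% in PS19, 3.53 to 7.94% in WT, 13.8 to 18.2% in CgA-KO/PS19 replicates 1 to 3, and 3.84 to 10.9% in replicates 4 to 6. Replicates 1 to 3 of each genotype had the Y-linked gene Ddx3y at 49.7 to 76.8 CPM and the other libraries had it at 0.0582 CPM or less. The study's results text gives each genotype as many males as it had libraries with Ddx3y clearly detected, and females for the rest. The labels give no sex of a library. The summed markers of striatum were 1121 to 3311 CPM in WT, 165.5 to 222.3 CPM in PS19, 437.7 to 1912 CPM in CgA-KO/PS19 replicates 1 to 3 and at most 226.6 CPM in replicates 4 to 6. All 14 striatum markers passed the test as higher in WT than in PS19, and 10 of 14 as higher in CgA-KO/PS19, beside 3.95 and 5.50% of all genes. Summed choroid plexus markers were 1105 CPM in WT replicate 5 and 4.81 to 20.3 CPM in the other libraries. All 13 neuron markers, a list not particular to cortex, were detected in each genotype. PS19 replicates 4 to 6 were close to each other, with a standard deviation of log2 ratios over genes of 0.216 to 0.243, and so were CgA-KO/PS19 replicates 1 and 3, at 0.255. The other PS19 pairs were at 0.263 to 0.336, little further apart, the other CgA-KO/PS19 pairs at 0.336 to 0.685 and the WT pairs at 0.307 to 0.603.

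All 7 members were detected in all 17 libraries, and together they took 0.139 to 0.413% of the counts. Per kilobase of exon, taken over all annotated transcripts of a gene, the mean level in PS19 was 88.6 CPM per kb for Malat1, 47.7 for Meg3, 15.4 for Rian, 7.27 for Snhg11, 6.21 for Miat, 1.28 for Neat1 and 0.663 for Mirg. Poly(A) capture and the transcripts made can differ between genes. The order therefore describes the counts and does not rank the amounts of RNA. The Malat1 libraries of PS19 (58.3 to 111 CPM per kb) overlapped those of Meg3 (31.7 to 59.2) at their edge and Snhg11 overlapped Miat, while the other neighbours in this order did not overlap. These are ranges over libraries and do not compare the genes within a library. Neat1 is spread over 20771 bases of annotated exon, most of them in the long form only, so its value per kb averages over both forms. The order of the 5 highest was the same in WT apart from Snhg11, which in WT averaged 20.1 ± 22.9 CPM per kb (SD, n = 5) through replicate 4.

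**Figure D1:**
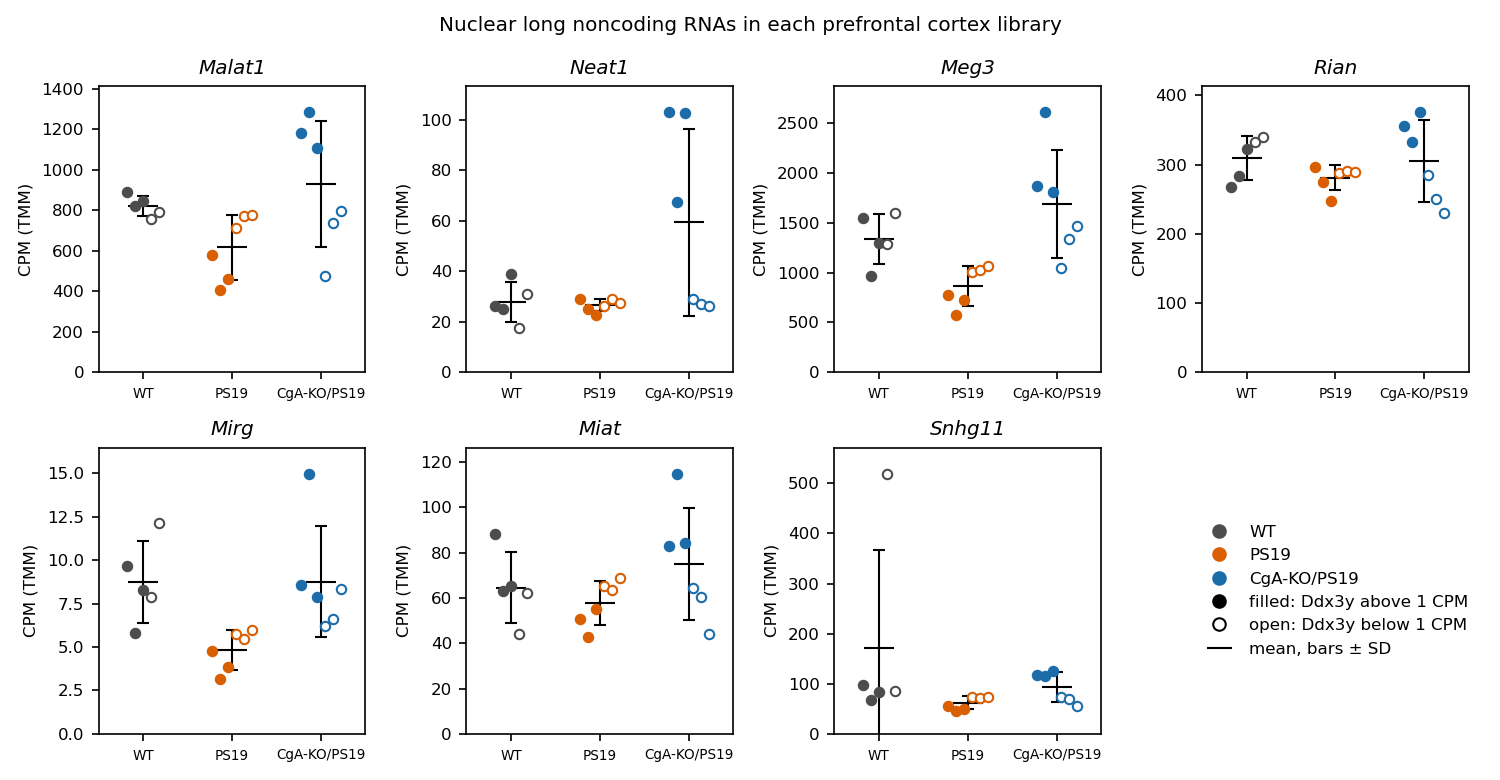
Level of each member (y axis, CPM after TMM scaling, from 0) in each library of 5 WT, 6 PS19 and 6 CgA-KO/PS19 libraries; bars are the mean ± SD, filled points are libraries with Ddx3y above 1 CPM and open points those below, and the lower SD bar of Snhg11 in WT is clipped at 0. The 3 filled CgA-KO/PS19 points stand above the 3 open ones for Malat1, Neat1, Meg3, Rian, Miat and Snhg11, and the Snhg11 value of 519.4 CPM is WT replicate 4.

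Malat1 was at 757.1, 789.9, 820.8, 844.9 and 889.6 CPM in the 5 WT libraries. In PS19 it ranged from 406.8 to 777.4 CPM with a median of 645.5 CPM, and in CgA-KO/PS19 from 475.7 to 1285 CPM with a median of 951.5 CPM. The 3 highest libraries of the series were CgA-KO/PS19 replicates 1 to 3 (1183, 1285 and 1106 CPM), the lowest were PS19 replicates 2 and 3, and PS19 overlapped both other genotypes. The level was 1.33-fold higher in WT than in PS19 (log2 fold change 0.41 ± 0.22 SE, adjusted p = 0.304) and 1.51-fold higher in CgA-KO/PS19 (0.59 ± 0.21, adjusted p = 0.0797, edgeR), and neither passed the test. Without CgA-KO/PS19 replicate 4 the second difference was 0.73 and passed (adjusted p = 0.0123, edgeR). In DESeq2 the second difference passed with all libraries (0.62, adjusted p = 0.0397).

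Neat1 was at 17.6, 25.2, 26.3, 30.9 and 39.1 CPM in WT. In PS19 the libraries lay close together, from 22.7 to 29.2 CPM with a median of 27.0 CPM. In CgA-KO/PS19 they fell into separate ranges, with replicates 1 to 3 at 103.1, 67.7 and 102.8 CPM and replicates 4 to 6 at 29.2, 27.2 and 26.2 CPM. Only the first 3 stood above all WT and PS19 libraries, and the other 3 lay within the range of WT. Against PS19, Neat1 was 2.23-fold higher in CgA-KO/PS19 (log2 1.16 ± 0.32 SE, adjusted p = 0.0329, edgeR), and not detectably different between WT and PS19 (0.07 ± 0.33, adjusted p = 0.942). Between replicates 4 to 6 of CgA-KO/PS19 and of PS19 the difference was -0.01 ± 0.21. The call was lost when any 1 of the 6 PS19 libraries or CgA-KO/PS19 replicate 1, 2 or 3 was left out, with log2 values of 0.93 to 1.19 and adjusted p of 0.0506 to 0.0853.

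Of the imprinted transcripts, Meg3, which is also known as Gtl2, was at 964.8, 1281, 1293, 1545 and 1597 CPM in WT. It was at 574.0 to 1070 CPM in PS19, with a median of 892.7 CPM, and at 1042 to 2606 CPM in CgA-KO/PS19, with a median of 1633 CPM. WT replicate 2 and CgA-KO/PS19 replicate 4 overlapped the upper PS19 libraries, and the other libraries of both genotypes stood above all of PS19. Against PS19, Meg3 was 1.96-fold higher in CgA-KO/PS19 (log2 0.97 ± 0.20 SE, adjusted p = 0.00951), and 1.55-fold higher in WT, which did not pass (0.63 ± 0.21, adjusted p = 0.0898, edgeR). The first call held with each library left out in turn. In DESeq2 the difference of WT from PS19 passed (0.64, adjusted p = 0.0486).

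Mirg, the transcript downstream of Rian that holds most of the microRNAs, was low: 5.78, 7.87, 8.31, 9.66 and 12.1 CPM in WT. It was at 3.15 to 6.0 CPM in PS19 (median 5.13 CPM) and 6.20 to 15.0 CPM in CgA-KO/PS19 (median 8.10 CPM). All CgA-KO/PS19 libraries stood above all PS19 libraries, although replicate 4 of CgA-KO/PS19 and replicate 6 of PS19 were nearly equal, and WT replicate 2 lay inside the PS19 range. Mirg was higher than in PS19 by 1.81-fold in both WT (log2 0.86 ± 0.24 SE, adjusted p = 0.0379) and CgA-KO/PS19 (0.86 ± 0.23, adjusted p = 0.0256, edgeR). These comparisons share the PS19 libraries. The call in WT was lost without WT replicate 1, 3 or 5 or any of PS19 replicates 1 to 5 (log2 0.71 to 0.92, adjusted p = 0.0505 to 0.139), and that in CgA-KO/PS19 without PS19 replicate 2 or 3 or CgA-KO/PS19 replicate 2 (log2 0.64 to 0.81, adjusted p = 0.0551 to 0.0676).

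Rian, the host of small nucleolar RNAs between them, differed less from PS19 than Meg3 and Mirg did in both other genotypes. It was at 268.3, 284.0, 322.3, 332.3 and 340.2 CPM in WT, at 247.1 to 296.4 CPM in PS19 (median 288.4 CPM) and at 229.9 to 376.1 CPM in CgA-KO/PS19 (median 309.1 CPM). The genotypes overlapped, and the log2 difference from PS19 was 0.14 ± 0.12 SE for WT (adjusted p = 0.553) and 0.12 ± 0.12 for CgA-KO/PS19 (adjusted p = 0.537, edgeR).

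Miat was at 44.2, 62.3, 63.1, 65.3 and 88.0 CPM in WT, at 43.0 to 68.7 CPM in PS19 (median 59.4 CPM) and at 43.9 to 114.9 CPM in CgA-KO/PS19 (median 73.6 CPM). The 3 genotypes overlapped over most of this range, and no difference from PS19 passed. It was 0.17 ± 0.21 SE on the log2 scale for WT (adjusted p = 0.701) and 0.38 ± 0.20 for CgA-KO/PS19 (adjusted p = 0.220, edgeR). Gm26953, an annotated gene on the opposite strand of Miat, averaged 0.102 CPM.

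Snhg11 was at 68.3, 83.7, 86.2 and 97.4 CPM in 4 WT libraries and at 519.4 CPM in WT replicate 4. It was at 45.3 to 74.4 CPM in PS19 (median 64.0 CPM) and 56.5 to 126.3 CPM in CgA-KO/PS19 (median 95.2 CPM). WT replicate 4, the shallowest library, was thus 4.11 times the highest other library of the series, and among the 9874 genes with a mean of at least 10 CPM only Prrt2 and Rnf170 exceeded the other libraries by as much in it. The log2 difference of WT from PS19 was 1.46 ± 0.44 SE with all libraries (adjusted p = 0.0564, edgeR) and 0.44 without WT replicate 4 (adjusted p = 0.281), whereas it passed without WT replicate 1, 2 or 3 (1.60 to 1.66, adjusted p = 0.0334 to 0.0443). In DESeq2 with all libraries, WT replicate 4 included, it passed (1.48, adjusted p = 0.00945). Against PS19, CgA-KO/PS19 differed by 0.60 ± 0.41 (adjusted p = 0.363).

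In counts, 1 of the 7 members (Mirg) passed the test as higher in WT than in PS19, and none as lower, while 3.95% of all genes tested were called higher. By the threshold in the study's methods, a log2 fold change above 0.5 with an unadjusted p under 0.01, 3 members (Meg3, Mirg and Snhg11) were higher in WT, against 4.57% of all genes. The study's results text gives a stricter threshold for WT and PS19, a larger fold change with an adjusted p under 0.01. No member met it, the lowest adjusted p being 0.0379 (Mirg, edgeR). In no member did all WT libraries lie above all PS19 libraries, which 4.39% of all genes showed. The members' median log2 fold change was 0.41 in WT against PS19, beside -0.01 over all genes.

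In CgA-KO/PS19 against PS19, 3 of 7 (Neat1, Meg3 and Mirg) passed as higher and none as lower, with 5.50% of all genes called higher. The same 3 passed the threshold of the study's methods, which 6.30% of all genes did in that direction. In 1 (Mirg) the libraries did not overlap, as in 2.84% of all genes. The members' median log2 fold change was 0.60, beside 0.03 over all genes. All 7 had values above 0 in both comparisons with PS19, which share their PS19 libraries. With PS19 replicates 4 to 6 averaged to 1 sample and CgA-KO/PS19 replicates 1 and 3 to another, none of the 7 passed in either comparison, and in CgA-KO/PS19 the log2 value was 1.09 for Meg3 (adjusted p = 0.0610), 1.01 for Mirg (0.102) and 0.96 for Neat1 (0.203, edgeR).

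Between CgA-KO/PS19 and WT, none of the 7 passed in edgeR, with 3.56% of all genes called higher in CgA-KO/PS19. Neat1 alone passed the threshold of the study's methods (log2 1.09 ± 0.34 SE, adjusted p = 0.0661, edgeR), beside 4.66% of all genes. No member had libraries that did not overlap, which 2.06% of all genes had. Neat1 was the only member with an unadjusted p under 0.05, and in DESeq2 it was the only 1 called (1.12, adjusted p = 0.0146).

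**Figure D2:**
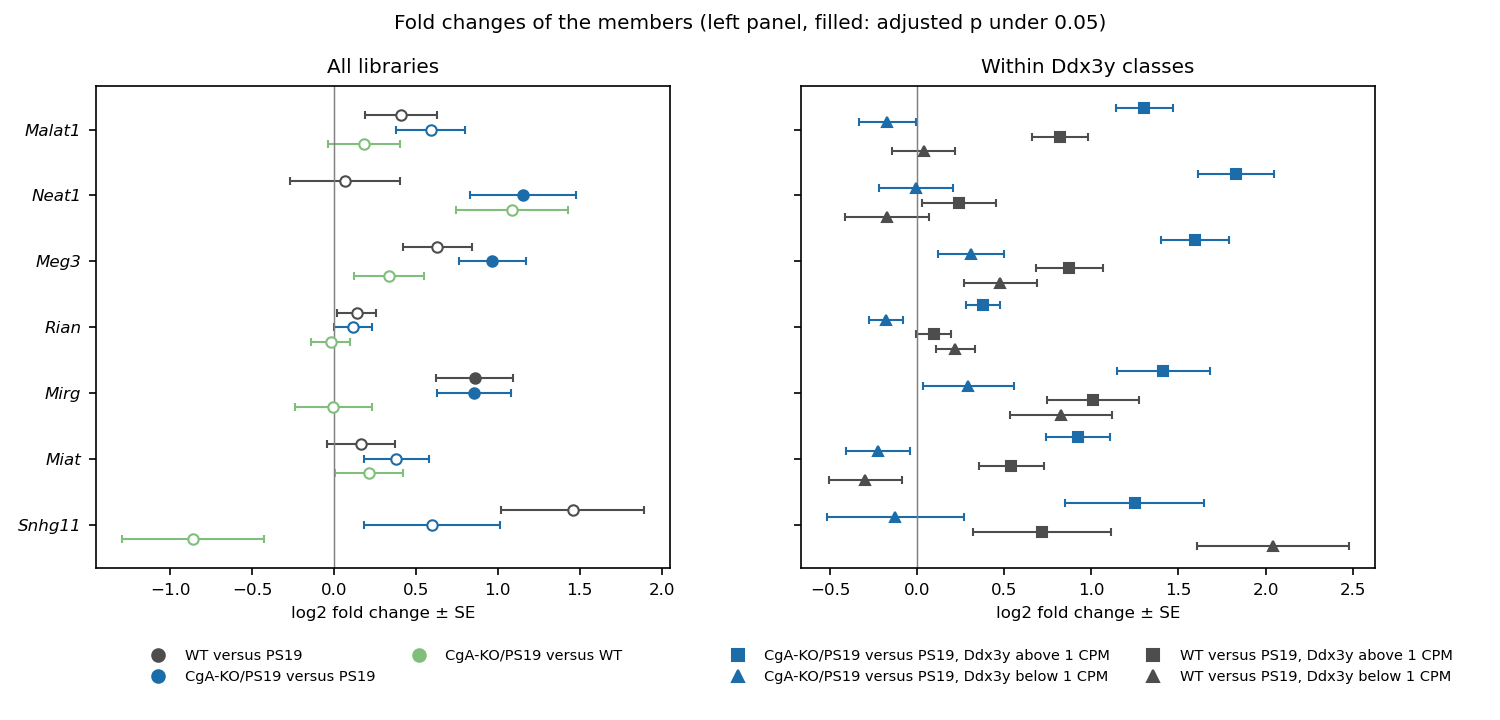
Log2 fold change ± SE (x axis) of each member between genotypes over all libraries (left) and within libraries on either side of 1 CPM of Ddx3y (right); filled symbols on the left have an adjusted p under 0.05, and the right panel marks no test. In it the CgA-KO/PS19 against PS19 squares, Ddx3y above 1 CPM, lie between 0.38 and 1.83, and the matching triangles lie between -0.23 and 0.31.

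Every member but Mirg was higher in CgA-KO/PS19 replicates 1 to 3 than in replicates 4 to 6, without overlap. The values are therefore also given on either side of 1 CPM of Ddx3y, from a fit with a mean for each genotype and Ddx3y class. This split was chosen after that separation was seen, so the values and counts within the classes, those of the gene lists included, are descriptions and no test. For CgA-KO/PS19 against PS19 where Ddx3y was above 1 CPM, the log2 fold change was 1.83 ± 0.22 SE for Neat1, 1.60 ± 0.19 for Meg3, 1.41 ± 0.27 for Mirg, 1.31 ± 0.16 for Malat1, 1.25 ± 0.40 for Snhg11, 0.92 ± 0.19 for Miat and 0.38 ± 0.10 for Rian. Where it was below, the values ran from -0.23 (Miat) to 0.31 (Meg3).

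The same fit called 11.7% of all genes higher in CgA-KO/PS19 against PS19 where Ddx3y was above 1 CPM and 1.08% where it was below, and gave 4.97% a greater difference above than below. PS19 differed between the classes as well: Malat1 was at 406.8 to 578.3 CPM in PS19 replicates 1 to 3 and 712.7 to 777.4 CPM in replicates 4 to 6. With PS19 replicates 4 to 6 averaged to 1 sample and CgA-KO/PS19 replicates 1 and 3 to another, the shares fell to 5.19% above and 0.0130% below, and 0.0173% of all genes had a greater difference above.

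CgA-KO/PS19 replicates 1 to 3 also differed in other features, so that Ddx3y, the mitochondrial share and the marker levels cannot be told apart as descriptions of those libraries. Summed neuron markers were 7460 to 10570 CPM in them and 12420 to 16970 CPM in replicates 4 to 6, and summed oligodendrocyte markers were 2739 to 3134 CPM against 1651 to 1750 CPM. Summed astrocyte markers were 4563 to 6952 CPM against 1498 to 3650 CPM. Over all CgA-KO/PS19 libraries, 3 of 13 neuron markers passed as lower than in PS19, among them Gad1 (log2 -0.78 ± 0.16 SE) and Eno2 (-0.76 ± 0.17). Of the 23062 genes tested, 974 passed as lower. In bulk tissue, fewer cells of a type and less RNA per cell cannot be told apart. With the mitochondrial share as a covariate, no member passed in CgA-KO/PS19 against PS19, the log2 values being 0.18 for Neat1, 0.26 for Meg3 and 0.27 for Mirg, and 75 of all genes tested passed. With the striatum markers as a covariate, Meg3 still passed (0.77, adjusted p = 0.0485), and Neat1 (0.18, adjusted p = 0.432) and Mirg (0.74, adjusted p = 0.0853, edgeR) did not. The part of these features in the result was not tested.

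**Figure D3:**
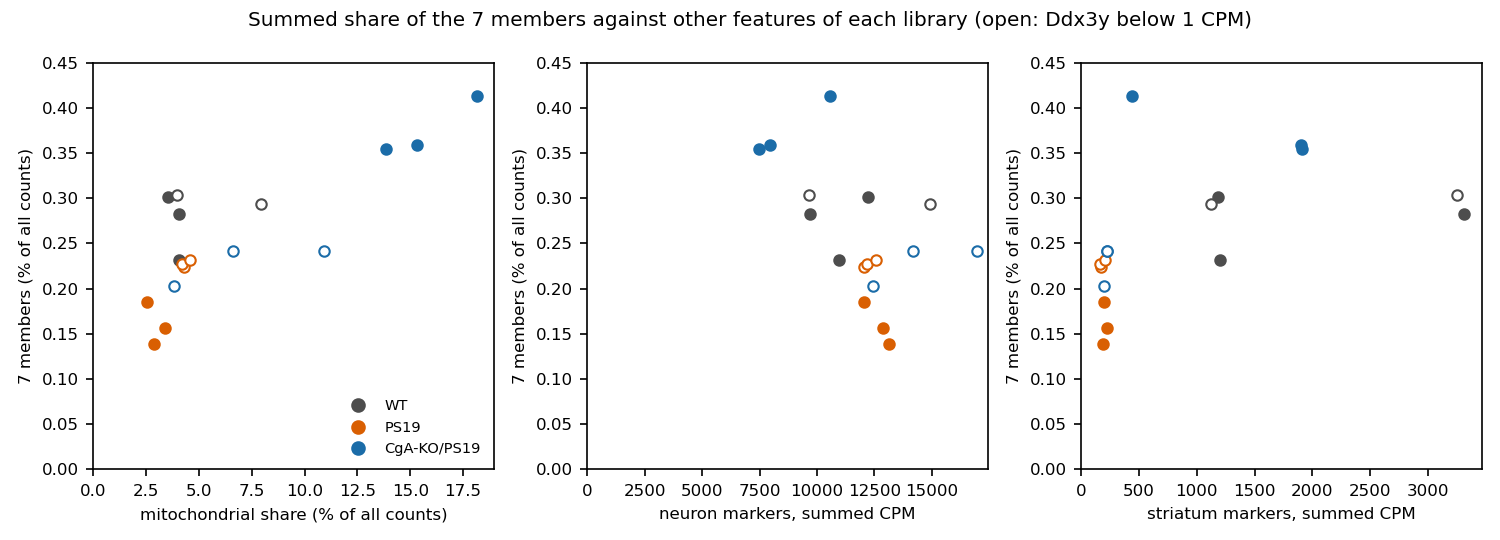
Summed share of the 7 members in all counts (y axis, percent) against the mitochondrial share, the summed neuron markers and the summed striatum markers of the same library (x axes), coloured by genotype, with open points for Ddx3y below 1 CPM. CgA-KO/PS19 replicates 1 to 3 combine the highest member shares, 0.354 to 0.413%, with the highest mitochondrial shares, 13.8 to 18.2%.

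For WT against PS19 the same fit gave log2 fold changes, where Ddx3y was above 1 CPM, of 1.01 ± 0.26 SE for Mirg, 0.87 ± 0.19 for Meg3 and 0.82 ± 0.16 for Malat1, the other members being at 0.09 to 0.72. Where it was below, Snhg11 was at 2.04 ± 0.44 and the others at -0.30 to 0.82, and that class holds 2 WT libraries, WT replicate 4 included. These are descriptions too. Of all genes, 1.0% were called higher in WT where Ddx3y was above 1 CPM and 6.03% where it was below, and 0.0390% had a greater difference above. With the same libraries averaged these shares were 0.0781, 0.108 and 0%. The striatum markers moved with genotype here, and with their mean as a covariate Mirg no longer passed (log2 0.60, adjusted p = 0.323) and Neat1 was lower in WT (-1.60, adjusted p = 0.00160, edgeR).

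Neighbours on the chromosome were then compared within each library, where the library's depth drops out. Rian counts were 34.0 ± 8.06% of Meg3 counts in PS19 (SD, n = 6), 23.8 ± 4.62% in WT (n = 5) and 19.1 ± 4.97% in CgA-KO/PS19 (n = 6). The ratio ran from 27.0 to 48.0% in PS19, from 17.4 to 29.4% in WT and from 12.8 to 27.4% in CgA-KO/PS19. It was lower than in PS19 in both other genotypes by a two-sided exact permutation test (WT p = 0.0173, CgA-KO/PS19 p = 0.00433; adjusted over 9 tests, p = 0.0390 and 0.0195). In CgA-KO/PS19 the ranges of the Ddx3y classes overlapped, 12.8 to 20.9% above 1 CPM and 15.7 to 27.4% below, and in PS19 they did not, 34.0 to 48.0% above and 27.0 to 28.5% below. Below 1 CPM the highest CgA-KO/PS19 library (27.4%) lay inside the PS19 range. The WT call was lost in 10 of 11 fits that left out 1 library, with log2 differences of -0.59 to -0.40.

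Mirg counts were 0.561 ± 0.0315% of Meg3 counts in PS19 (SD, n = 6), 0.648 ± 0.0645% in WT (n = 5) and 0.522 ± 0.0665% in CgA-KO/PS19 (n = 6). The ratio was higher in WT than in PS19 and CgA-KO/PS19 (exact permutation p = 0.0130 and 0.00433, adjusted p = 0.0390 and 0.0195), and between the other genotypes no difference passed (exact permutation p = 0.208). All WT libraries (0.599 to 0.760%) stood above all CgA-KO/PS19 libraries (0.438 to 0.595%). The difference of WT from PS19 was 0.21 on the log2 scale and did not pass in 9 of 11 fits that left out 1 library. Meg3 itself varied from 574.0 to 2606 CPM over the same libraries.

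Neat1 counts were 3.38 ± 0.897% of Malat1 counts in WT (SD, n = 5), 4.52 ± 1.02% in PS19 (n = 6) and 6.06 ± 2.51% in CgA-KO/PS19 (n = 6). No genotype difference in this ratio passed after adjustment. The nearest was CgA-KO/PS19 against WT (exact permutation p = 0.0390, adjusted p = 0.0701).

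**Figure D4:**
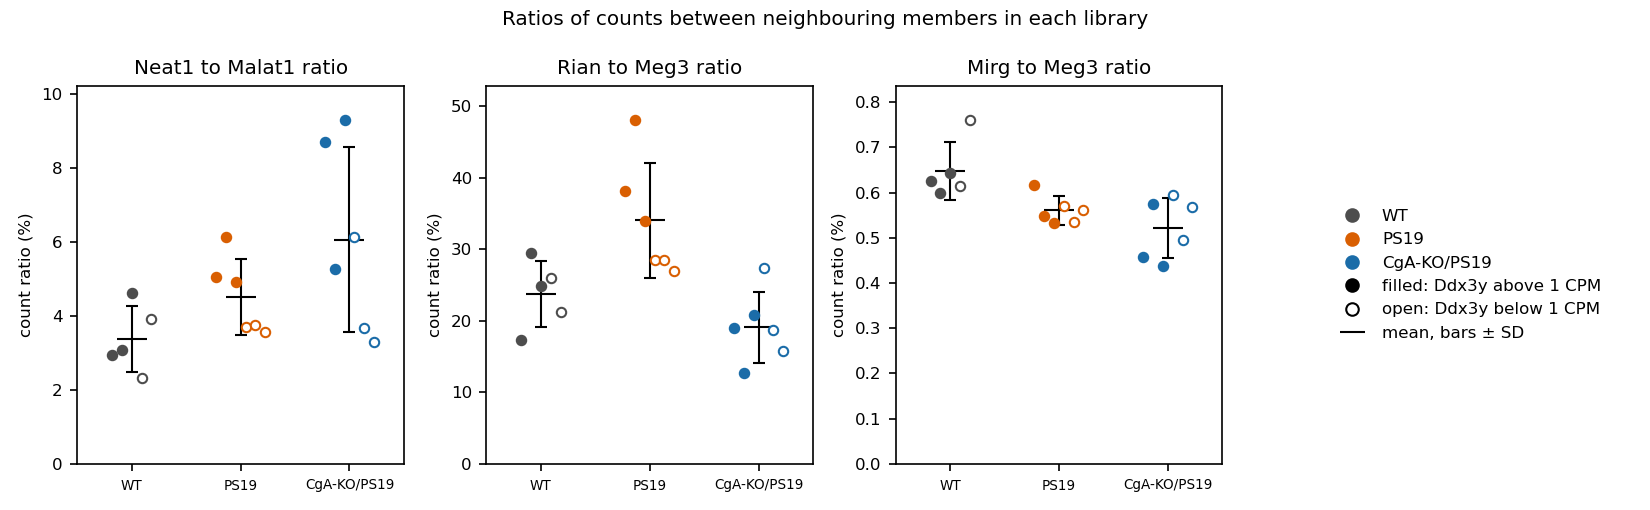
Counts of Neat1 as a percent of Malat1, and of Rian and Mirg as a percent of Meg3 (y axes, from 0), in each library, with mean ± SD per genotype and open points for Ddx3y below 1 CPM. The Rian to Meg3 ratio is at least 27.0% in each PS19 library, and the Mirg to Meg3 ratio stays between 0.438 and 0.760% in all 17 libraries.

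Across the 17 libraries, which differ in genotype, depth and composition, the members rose and fell together to different degrees. As a description, Pearson's r of log2(CPM + 1) was 0.94 between Meg3 and Mirg (Spearman's rho 0.94) and 0.89 between Malat1 and Meg3 (rho 0.83), and Malat1 and its neighbour Neat1 reached 0.68 (rho 0.56). Meg3 and Rian, although adjacent, reached 0.49 (rho 0.50). After centring on genotype means the first 3 values were 0.93, 0.88 and 0.67.

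Among 9868 other genes with a mean of at least 10 CPM, the gene most like Malat1, Meg3 and Mirg was in each case Rnpc3, the gene of a protein of the minor spliceosome, with r = 0.89, 0.96 and 0.92 over 17 libraries. Srsf11, a splicing factor gene, was next for Meg3 (r = 0.94). Neat1 was most like Daam2 (r = 0.96, rho 0.65), Rian like Idh1 (r = 0.88), Miat like Gm3764 (r = 0.95) and Snhg11 like Srsf3 (r = 0.90, rho 0.76).

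Within genotypes, the spread of Snhg11 (SD of log2(CPM + 1) 0.76) and Neat1 (0.60) was larger than that of 98.5 and 96.4% of all genes tested. Adding 1 CPM narrows the spread of weakly expressed genes, so the shares in this paragraph do not compare the members with genes of similar level. Without WT replicate 4 the Snhg11 SD was 0.35, larger than that of 87.6% of genes. With all libraries, Malat1, Meg3, Miat and Mirg had SDs of 0.36 to 0.39. The SD of Rian was 0.19, larger than that of 41.9% of genes, and without WT replicate 4 it was 0.20, larger than that of 53.1%.

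The imprinted domain around Meg3 holds genes of both parental alleles. In the 8 other listed domain genes that were tested (of 9 listed), 4 passed as higher in WT than in PS19: Dlk1, a paternally expressed Notch-like ligand (log2 5.96 ± 0.83 SE, 13.6 ± 14.9 against 0.237 ± 0.165 CPM), Dio3, a thyroid hormone deiodinase (3.12 ± 0.54), Dio3os and Rtl1. In CgA-KO/PS19 against PS19, 2 of 8 passed, Dlk1 (2.49 ± 0.74, at 1.24 ± 1.49 CPM) and Rtl1 (0.86 ± 0.25), a retrotransposon-like gene transcribed against the Meg3 strand between Meg3 and Rian. The counting strand is not given in the sources used here. Rtl1 averaged 2.86 CPM beside 1293 CPM for Meg3. It lies 17467 bases from Meg3 and 3610 bases from Rian and overlaps neither, so its level does not show the strand setting. Within 1000 kb of the Meg3 start, 4 of 26 other tested genes were called higher in each of the comparisons with PS19 and none lower, and the abundant genes Yy1, Evl and Ppp2r5c were not called in either (log2 -0.16 to 0.17). Beside the counts of this paragraph, 3.95% of all genes tested were called higher in WT than in PS19 and 5.50% in CgA-KO/PS19.

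**Figure D5:**
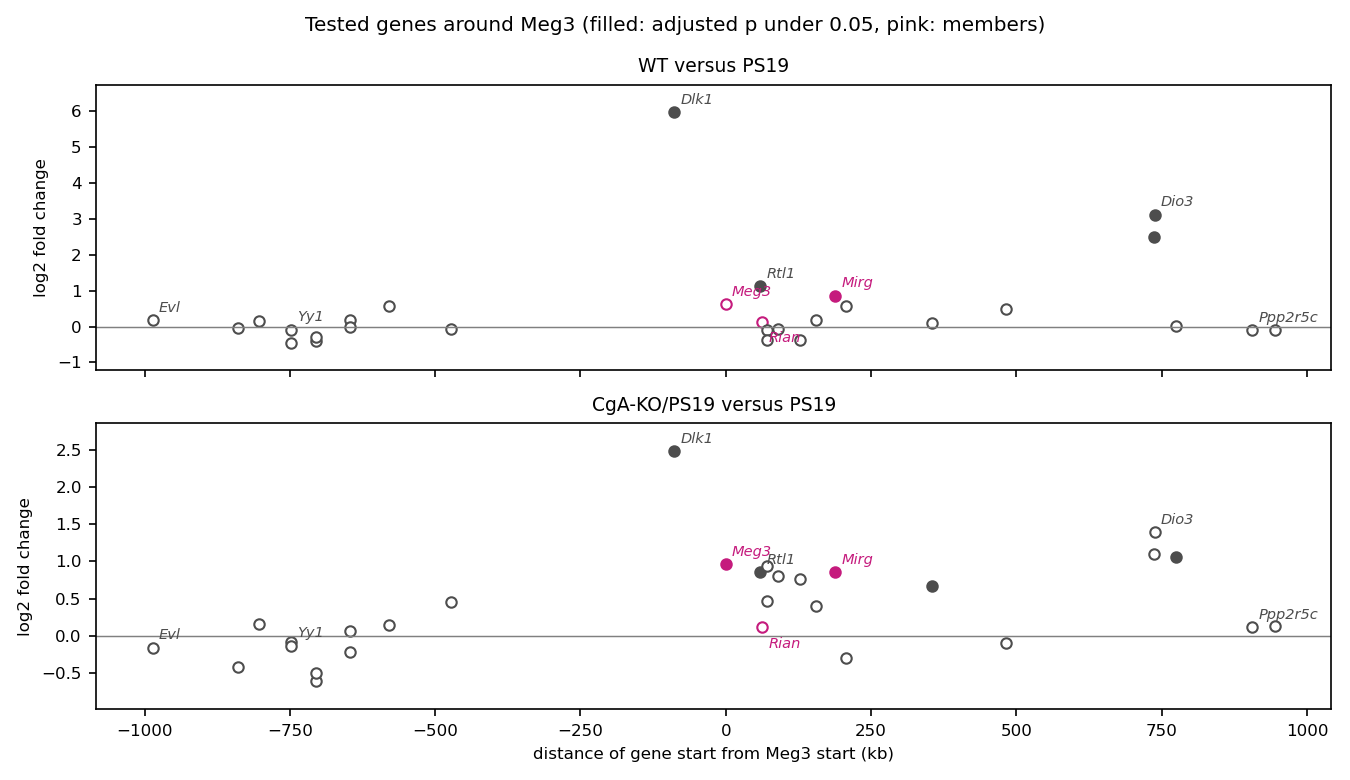
Log2 fold change (y axis) of each tested gene against the distance of its start from the Meg3 start (x axis, kb), for WT against PS19 (top) and CgA-KO/PS19 against PS19 (bottom); the 3 members are pink and filled points have an adjusted p under 0.05. In the top panel Dlk1 (5.96) and Dio3 (3.12) stand far above Meg3 (0.63), Rian (0.14) and Mirg (0.86), and in the bottom panel Meg3 is at 0.97.

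Tested genes beside Neat1, Miat and Snhg11 were not called. Frmd8, next to Neat1, was at log2 0.05 in CgA-KO/PS19 against PS19 (adjusted p = 0.936). Snhg17 and Ralgapb beside Snhg11 were at 0.15 and -0.23 (adjusted p = 0.738 and 0.128), and Cryba4 beside Miat, at 0.127 CPM, was at -0.52 (adjusted p = 0.717, edgeR).

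Of the proteins known to sit with these RNAs, the 20 listed genes of paraspeckle proteins, partners of Neat1, were mostly not called. In CgA-KO/PS19 against PS19, 2 were higher, Hnrnph3 (log2 0.62 ± 0.19 SE) and Rbm4b (0.38 ± 0.10), and 1 lower, Smarca4 (-0.34 ± 0.10). Of the 23062 genes tested, 5.50% were called higher and 974 genes lower in that comparison. In WT against PS19, 1 was higher, Sfpq, a core paraspeckle protein (0.43 ± 0.12), beside 3.95% of all genes. The list's median was 0.00 in CgA-KO/PS19 against PS19, beside 0.03 over all genes. Where Ddx3y was above 1 CPM, 8 of the 20 passed as lower and none as higher in CgA-KO/PS19 against PS19, with a median of -0.22, beside 13.3% of all genes lower and 11.7% higher. Where it was below, 1 passed as higher, beside 1.08% of all genes. In WT against PS19, none passed where Ddx3y was above 1 CPM and 6 of 20 passed as higher where it was below, beside 6.03% of all genes.

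The 28 listed genes of nuclear speckle and splicing proteins, whose compartment Malat1 marks, were called higher or not at all over all libraries. In each comparison with PS19, 7 of 28 passed as higher and none as lower, beside 3.95% of all genes called higher in WT and 5.50% in CgA-KO/PS19, and the median log2 fold change was 0.26 for WT and 0.18 for CgA-KO/PS19, beside -0.01 and 0.03 over all genes. Clk1, a kinase of splicing factors, was at 47.7 ± 10.3 CPM in CgA-KO/PS19, 39.2 ± 3.39 CPM in WT and 26.4 ± 5.21 CPM in PS19 (log2 0.85 ± 0.15 SE and 0.57 ± 0.15 against PS19), and its paralog Clk4 was also higher in both (0.58 ± 0.13 and 0.50 ± 0.13). Luc7l3, a spliceosome-associated protein gene, was higher in CgA-KO/PS19 (0.56 ± 0.17) and Acin1 in WT (0.52 ± 0.13). Where Ddx3y was above 1 CPM, 9 passed as higher and 4 as lower in CgA-KO/PS19 against PS19, beside 11.7 and 13.3% of all genes, and none passed where it was below. In WT against PS19, 2 of 28 passed as higher in each class. Among the 23062 genes tested, 231 did so where Ddx3y was above 1 CPM and 1390 where it was below.

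Of 31 other long noncoding RNAs listed, 22 were tested, and 6 passed as higher in CgA-KO/PS19 against PS19 and none as lower, with a median log2 fold change of 0.49. Of all genes tested, 5.50% were called higher in that comparison. Sox2ot, which overlaps Sox2, was at 12.9 ± 7.19 CPM against 2.51 ± 0.751 CPM (log2 2.35 ± 0.31 SE), Kcnq1ot1, the imprinting RNA of the Kcnq1 domain, at 54.5 ± 25.5 against 20.1 ± 1.84 CPM (1.44 ± 0.26), and Ftx, from the X-inactivation centre, at 17.2 ± 3.90 against 9.07 ± 2.82 CPM (0.93 ± 0.21). In WT against PS19, 1 of 22 passed, Sox2ot (1.23 ± 0.32), beside 3.95% of all genes called higher. In the Ddx3y class above 1 CPM, 9 of 22 passed as higher and 1 as lower in CgA-KO/PS19 against PS19. Of all genes, 11.7% were called higher and 13.3% lower there. In WT against PS19, 2 of 22 passed as higher in that class, beside 231 of the 23062 genes tested. In the class below, 1 and 4 passed as higher, beside 1.08 and 6.03% of all genes.

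Of the snoRNA host genes other than Snhg11, 16 of 18 listed were tested. In CgA-KO/PS19 against PS19, 5 passed as higher, among them Gas5 (72.1 ± 17.1 against 43.3 ± 3.34 CPM, log2 0.74 ± 0.16 SE), Zfas1 (0.71 ± 0.15) and Snhg6 (0.73 ± 0.22), with a median of 0.41, and in WT against PS19 none passed. Of all genes, 5.50 and 3.95% were called higher in these comparisons. In the Ddx3y class above 1 CPM, 11 of 16 passed as higher in CgA-KO/PS19 against PS19, beside 11.7% of all genes, and none in WT against PS19. In the class below, none passed as higher in either comparison, beside 1.08 and 6.03% of all genes, and 1 passed as lower in WT, beside 5.89%.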

How the data were processed

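Poly(A) RNA of prefrontal cortex was sequenced (paired-end, NovaSeq). The authors trimmed reads with Trimmomatic 0.39, aligned them to mm10 with STAR 2.7.10b, quantified genes with StringTie 1.3.6 and deposited whole-number counts per gene without normalization, made with prepDE. The commonest low count was 3 in most libraries and 1 in 4 of them, and the number of fragments behind a count was not examined. The annotation release and strand setting are not given in the sources used here, and 52029 of 56953 identifiers matched GENCODE M21 without their version and 35 with it, so the levels per kb rest on exon lengths of a release other than the one counted. Counts were tested in edgeR 4.0.16 (R 4.3.3) by a quasi-likelihood fit to all 17 libraries with TMM scaling, filterByExpr, a mean per genotype and Benjamini-Hochberg adjustment over 23062 genes, and an adjusted p under 0.05 was called. CPM values are TMM-scaled. SEs are the log2 fold change over the square root of F. The common biological coefficient of variation was 0.316. Ratios were tested on log2 values by exact permutation of libraries (SciPy 1.17.1), two-sided. DESeq2 1.42.0 and limma 3.58.1 were alternatives, and the code was tested on simulated data. The study's methods call its replicates biological, the labels do not tie libraries to animals, and p-values measure the spread between libraries.

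The members, lists and tests were chosen with earlier results of these data known. Besides the members, Chga as a check of the labels, the nearest tested genes, the 3 most similar genes and up to 3 called genes per list and comparison with the largest fold change were named. Prrt2, Rnf170, Yy1, Evl and Ppp2r5c were named after their values were seen. Sequences were read from GENCODE M21 transcripts and RefSeq. A result for 1 neighbouring gene is not reported here.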

Additional observations from a re-analysis of the deposited data

Results flagged for a closer look

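Of 30 groups of libraries checked for a single library far from the rest, 3 had one, and chance gives about 5% of groups. Snhg11 was at 519.4 CPM in WT replicate 4, Mirg at 15.0 CPM in CgA-KO/PS19 replicate 2, and the Mirg to Meg3 ratio at 0.760% in WT replicate 5. WT replicate 5 was also the library with high choroid plexus markers. Without it, 632 of all genes passed in WT against PS19, beside 1361 with all libraries (edgeR).

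The difference of CgA-KO/PS19 from PS19 was larger where Ddx3y was above 1 CPM than where it was below for every member. For 5 members the edgeR fit gave this an adjusted p under 0.05, beside 4.97% of all genes in that direction. On the log2 scale it was 1.48 for Malat1, 1.84 for Neat1, 1.29 for Meg3, 0.56 for Rian and 1.15 for Miat. Mirg (1.12, adjusted p = 0.0639) and Snhg11 (1.38, adjusted p = 0.1245, edgeR) were not called. The split was chosen after these libraries were seen to stand apart, so the edgeR fit that gave these values is no independent test of them, and no member passed for this difference with the most similar libraries averaged.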

How the results depend on the processing

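Counts below are genes called at an adjusted p under 0.05, for WT against PS19, CgA-KO/PS19 against PS19 and CgA-KO/PS19 against WT in that order, beside 1361, 2242 and 1489 of all genes and 1, 3 and 0 members. Over all genes DESeq2 called 2396, 3958 and 2623, voom 3967, 5229 and 2458, the mitochondrial covariate 75 in the second and 253 in the third, the striatum covariate 3921, 1386 and 4988, and a fit to only the genotypes compared 2275 in the first and 266 in the third. Among members DESeq2 called 3, 4 and 1. No filter on low counts gave 0 and a minimum of 10 counts gave 2 in the first, the fit to the genotypes compared 2 in the first, the mitochondrial covariate 0 in the second, the striatum covariate 1 in the second and 1 in the third, and the Ddx3y covariate 1 in the third. Of alternatives chosen after seeing the data, the libraries with Ddx3y above 1 CPM gave 278, 5770 and 3801 genes and 2, 7 and 2 members, those below gave 2748 and 396 genes in the first and second, with 0 members in the second and 1 in the third, and averaging the most similar libraries gave 430, 156 and 577 genes and 0 members in the first and second. Leaving out 1 library gave 632 to 1471, 1019 to 3822 and 627 to 2099 genes and 0 to 2, 1 to 4 and 0 to 1 members.

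Replicate numbers did not pair the libraries: 2 of 16 same-numbered pairs had deviations correlated above 0.1 (-0.23 to 0.44). With the replicate block 660, 654 and 614 genes and 0 members in both comparisons with PS19 were called, Neat1 in WT against PS19 was -0.10 and Rian in CgA-KO/PS19 against WT 0.001.

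Signs turned as follows, in log2 units, and the cause was not tested. In CgA-KO/PS19 against WT, Mirg was 0.017 in DESeq2, 0.02 with its size factors, 0.049 at a minimum of 10 counts, 0.012 with the genotypes compared, 0.05 in voom, 0.14 with the striatum covariate, 0.40 above 1 CPM of Ddx3y and 0.012 averaged. Rian was 0.028 at a minimum of 10 counts, 0.043 in voom, 0.19 with the striatum covariate and 0.28 above, and Snhg11 0.10 in voom and 0.53 above. With the mitochondrial covariate Malat1 was -0.53, Meg3 -0.26 and Miat -0.075, and below 1 CPM Malat1 was -0.21 and Meg3 -0.17. In WT against PS19, Neat1 was -0.033 with the Ddx3y covariate, -0.075 with the mitochondrial, -1.60 with the striatum and -0.17 below, Malat1, Rian and Miat were -0.13, -0.28 and -0.25 with the striatum covariate, and Miat -0.30 below. In CgA-KO/PS19 against PS19, the mitochondrial covariate gave Malat1 -0.26, Rian -0.12 and Snhg11 -0.57, the striatum covariate Rian -0.091, and below 1 CPM Malat1 was -0.17, Neat1 -0.008, Rian -0.18, Miat -0.23 and Snhg11 -0.13.

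With 1 CPM added, the ratios in WT against PS19 no longer passed, Rian to Meg3 at -0.51 (adjusted p = 0.0519, exact permutation) and Mirg to Meg3 at 0.088 (0.209). Leaving out 1 library gave -0.591 to -0.401 and 0.147 to 0.234 for these, 0.632 to 0.932 for Neat1 to Malat1 in CgA-KO/PS19 against WT, -0.222 to 0.151 for Mirg, -0.084 to 0.049 for Rian and -1.064 to 0.157 for Snhg11 there, and -0.084 to 0.188 for Neat1 in WT against PS19. Neat1 to Malat1 passed only without CgA-KO/PS19 replicate 6 (adjusted p = 0.0429).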
